A study of Sorghum bicolor with 12 samples.

Results

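The transcripts described here rose in heated Sorghum leaves and rose further when the heated plants had also been without water, while drought alone raised none of them 2-fold on average. They were chosen by their values. A transcript was taken when heat exceeded the control of the same replicate number by more than 1 on the log2 scale (2-fold) in all 3 replicates with a mean ratio below 5, when combined heat and drought exceeded heat by more than 1 in all 3 replicates, when the mean drought ratio was below 1, and when every spot was well above background on the 3 heat and 3 combined-stress arrays. Of 28785 probes on the array, which stand for 28587 transcripts, 51 probes for 51 transcripts met these conditions. Of these, 28 could be given a Sorghum gene identifier (26 genes), of which 18 had a named annotation, 3 were annotated as unknown protein and 7 had no annotation, and the other 23 were known only by the number the array design gives them. Since heat, drought and combined-stress ratios all served to choose the members, their ratios are given below as a description. Counts of calls by a test over all transcripts stand beside the share called among all transcripts, and nothing is read from them.

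RNA came from leaves of Sorghum bicolor seedlings of the R16 variety, with 3 Agilent 1-colour arrays for each of 4 groups. Water was withheld from 14 days after sowing. Control plants were watered and kept at 28°C for 3 h in the dark, drought plants had been without water for 3 days before the same incubation, heat plants were watered and incubated at 50°C for 3 h in the dark, and combined-stress plants had been without water for 3 days before 3 h at 50°C in the dark. All plants were of 1 variety, the tissue of a treatment set was pooled, and the labels name the arrays as replicates 1, 2 and 3 of a group.

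In plants, heat shock factors are transcription factors that bind heat shock elements and switch on genes for molecular chaperones within minutes of a temperature rise. Class A factors activate transcription, while class B factors lack the activation motif and several act as repressors in Arabidopsis. Small heat shock proteins hold unfolding proteins, HSP70 proteins refold them, and class III peroxidases are secreted or vacuolar haem enzymes that oxidise phenolic compounds with hydrogen peroxide, among them the building units of lignin.

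A level below is log2 of the processed signal minus the 75th percentile of the same array, so that 0 is the brightness of a spot at that percentile, and a ratio or difference is between levels of arrays with the same replicate number. Levels of different transcripts cannot be set against each other, since probes differ in brightness. The 12 arrays lay on 3 slides, each slide held 1 array of every group, and replicate number and slide were the same. The 75th percentile of the signal was 1329.5 to 1924.4 on the combined-stress arrays and 2407.1 to 2663.9 on the heat arrays, and 74.99% to 84.35% of spots were well above background over the 12 arrays. Of 12 leaf marker transcripts that the study lists as changed, 10 were well above background on all 3 control arrays. The median level of that leaf list was -1.37 to -0.55 on the control arrays and 1.29 to 1.58 on the heat arrays. The median level of a list of 9 seed storage and oil body transcripts was 1.32 to 3.17 on the drought arrays, 0.35 to 2.79 on the combined-stress arrays, -1.43 to -0.55 on the control arrays and -1.84 to -1.61 on the heat arrays. Both lists hold only transcripts that the study lists as changed on these arrays, so their shifts are partly selected. Their part in the values below was not tested. These are whole-leaf samples, so fewer cells of a type and less RNA per cell cannot be told apart.

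Across the 51 members, heat exceeded control by a median of 2.89 (7.40-fold), from 1.43 to 4.85. Combined stress exceeded heat by a further 1.90 (3.73-fold), from 1.13 to 3.14, and the measured combined-stress level exceeded the measured control level by 4.74, from 2.82 to 7.34. The ratios to control are imprecise for the 22 members whose control was not well above background on every array, and the highest of them, 7.34, is a case with only a bound. The 29 members whose 3 control arrays were all well above background had medians of 2.89 for heat, 4.61 (from 3.29 to 6.50) for combined stress and 1.73 for the step between them. The median drought ratio was 0.03. Over all 22546 transcripts tested, the medians were -0.09 for heat minus control, -0.00 for combined stress minus heat, -0.11 for drought minus control and -0.08 for combined stress minus control. Heat levels stood above every control level in all 51 members, and above every drought level in 47. The share over all transcripts was not taken for these 2 counts. In 31 members every combined-stress array was also above every heat array, and in 20 the 2 groups overlapped although each numbered pair differed, while combined stress was above heat without overlap in 14.4% of all transcripts tested. Nothing is read from any of these comparisons between groups, since the rule used these arrays.

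**Figure D1:**
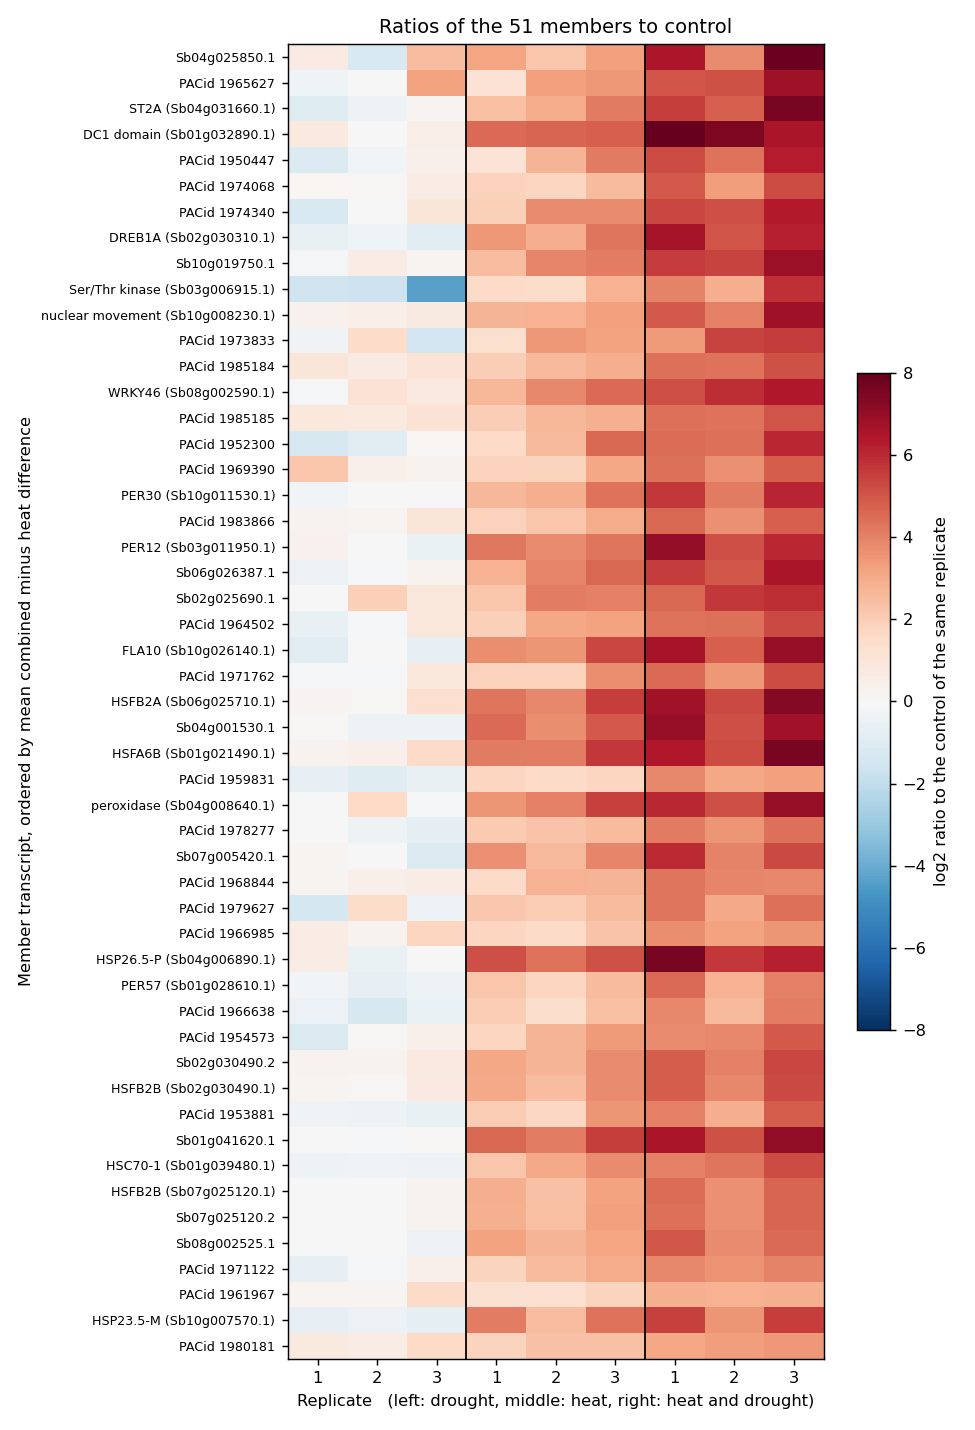
Log2 ratios of the drought (left), heat (middle) and combined-stress (right) arrays to the control array of the same replicate, one line per member, ordered by the mean difference of combined stress from heat. Drought ratios are near 0 in most lines, with the kinase transcript Sb03g006915.1 lowest at -2.54 on average, where 2 of 3 drought arrays were well above background. The combined-stress ratios are above the heat ratios throughout.

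Among the 18 members with a named annotation, transcription factors were the most frequent class. Names were lacking mainly for members with smaller heat ratios in replicate 1. Of 9 heat shock factor transcripts with an annotation, 4 were members, and they belong to 4 genes. HSFB2A (Sb06g025710.1) had levels of -5.36, -4.59 and -5.44 in control, with drought at -5.16, -4.51 and -4.07, heat at -1.07, -0.78 and 0.11 and combined stress at 1.33, 0.70 and 1.93, in the order of replicates 1, 2 and 3. No combined-stress array was as low as a heat array, and control and drought overlapped. Its heat ratio was 4.55 ± 0.89 (SD, n = 3), its drought ratio 0.55 ± 0.71 and its combined ratio 6.45 ± 1.06, so that combined stress exceeded heat by 1.90 ± 0.47 (3.73-fold).

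The class A factor HSFA6B (Sb01g021490.1) was at -0.19, 0.49 and -0.44 in control, with drought at 0.11, 0.87 and 1.12, heat at 3.94, 4.60 and 5.25 and combined stress at 6.22, 5.69 and 7.15. Heat and combined stress did not overlap. Combined stress exceeded heat by 1.76 ± 0.61 (SD, n = 3), on top of a heat ratio of 4.64 ± 0.90. A second transcript annotated as HSFA6B, Sb01g046350.1, was not a member, since its heat ratio of 7.45 lay above the ceiling and its combined-stress difference was 1.55, 1.07 and -0.43 in replicates 1, 2 and 3.

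The 2 genes annotated as HSFB2B, a repressor in Arabidopsis, had steps that differed little between replicates. Sb02g030490.1 was at -1.58, -0.66 and -1.57 in control, 1.47, 1.82 and 2.24 in heat and 3.25, 3.20 and 3.73 in combined stress, with -1.37, -0.57 and -0.83 in drought. Sb07g025120.1 was at -0.97, -0.19 and -0.64 in control, with drought at -0.91, -0.15 and -0.38, heat at 1.92, 2.16 and 2.59 and combined stress at 3.47, 3.46 and 4.01. In both genes the lowest combined-stress array lay above the highest heat array. The step from heat to combined stress was 1.55 ± 0.21 (SD, n = 3) for Sb02g030490.1 and 1.43 ± 0.12 for Sb07g025120.1. A second transcript of each gene was on the array and was also a member, and its level differed from that of the first by at most 0.16 on any array for Sb02g030490 and by at most 0.05 for Sb07g025120, so the paired transcripts are not separate evidence.

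The other annotated heat shock factors did not meet the rule. HSFA2 (Sb10g022340.1), a strongly heat-induced class A factor in Arabidopsis, had a heat ratio of 5.66, above the ceiling. It had the same direction as the members, since combined stress exceeded heat in every replicate, by 1.52, 0.96 and 0.67. HSF1 (Sb01g042370.1) had a heat ratio of 3.00 and a combined-stress difference of 0.01 ± 0.32 (SD, n = 3). HSFA3 (Sb04g021490.1), with a heat ratio of 2.03, was on average lower in combined stress than in heat, by -1.25 ± 1.47, a mean smaller than its spread. One further factor, Sb04g008300.1, had a drought ratio of 6.91, and its difference of 4.19 ± 0.54 from heat to combined stress therefore falls outside the rule. By limma's test with Benjamini-Hochberg adjustment (adjusted p under 0.05 and a difference beyond 1), all 9 factors were higher in heat than in control and 5 were higher in combined stress than in heat. Of all 2568 annotated transcripts tested, 1298 were called higher in heat than in control and 396 higher in combined stress than in heat. Over all transcripts tested the shares called were 14.8% and 3.34%. These 9 are factors that the study's lists of changed genes annotate, so the counts are not independent of the samples.

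**Figure D2:**
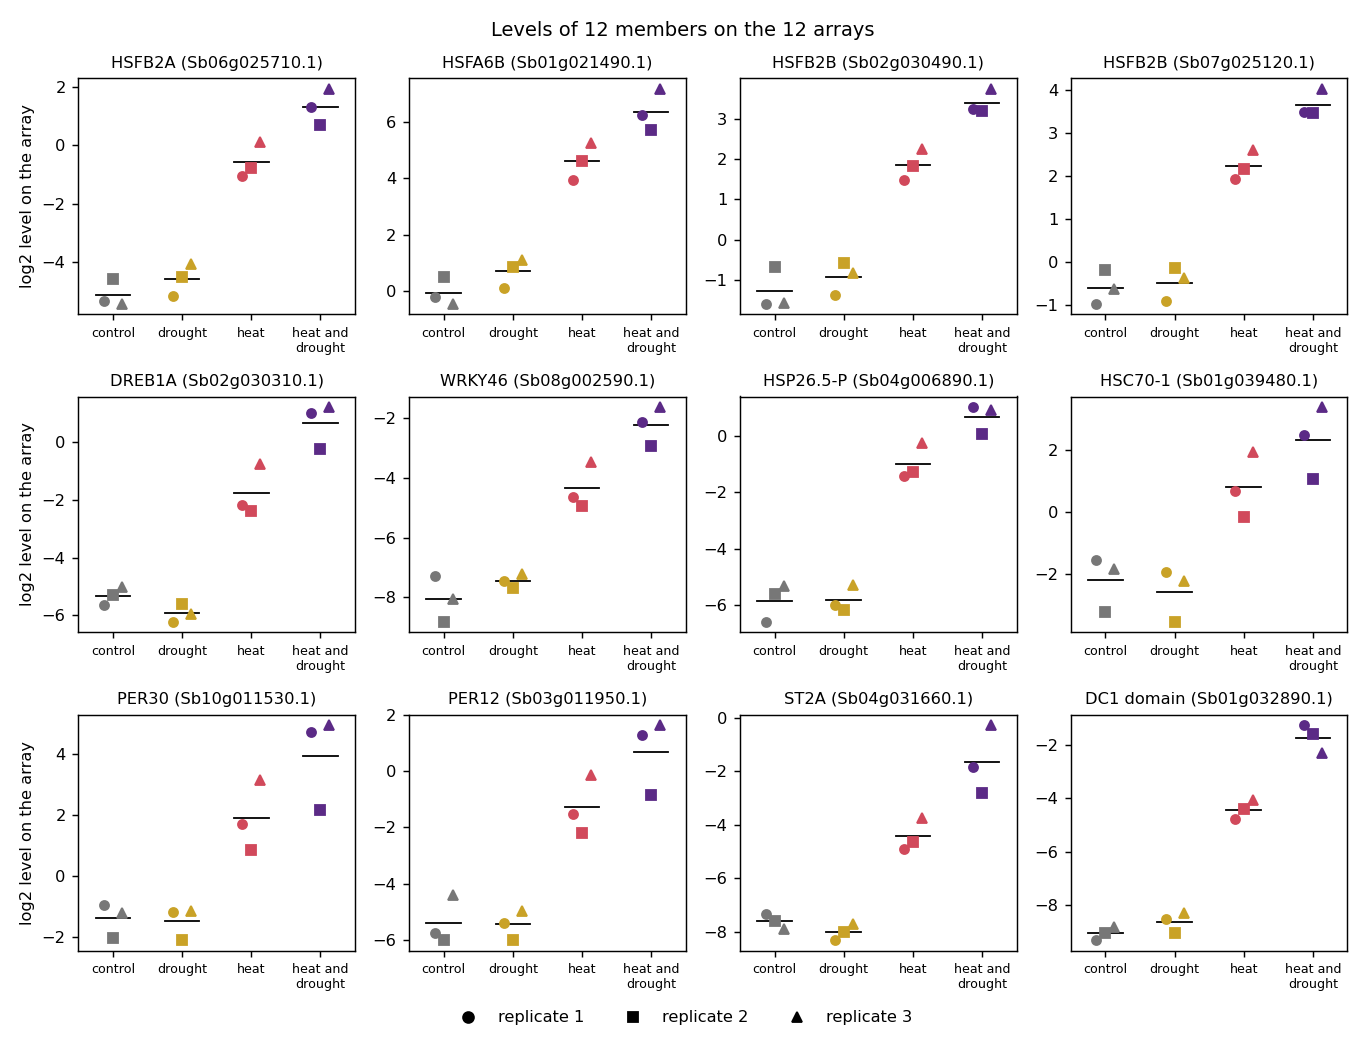
Log2 level, relative to the 75th percentile of the array, of 12 members on each of the 12 arrays. Symbols mark the replicate and bars the group mean of 3 arrays. Control and drought lie together at the bottom of each panel, and combined stress exceeds heat within every replicate.

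DREB1A (Sb02g030310.1) is named after an AP2-domain factor that switches on cold and dehydration genes in Arabidopsis. Its levels were -5.63, -5.29 and -5.03 in control, with drought at -6.22, -5.61 and -5.95, heat at -2.18, -2.38 and -0.77 and combined stress at 1.01, -0.23 and 1.21. The drought arrays were below their controls in each replicate, by -0.61 ± 0.30 (SD, n = 3) on average, and combined stress was above heat without overlap. The heat ratio was 3.54 ± 0.68 and combined stress added 2.44 ± 0.66 (5.43-fold), the largest step among the named transcription factors.

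WRKY46 (Sb08g002590.1), named after an Arabidopsis factor with roles in defence and osmotic stress, was dim in control at -7.29, -8.81 and -8.04, with 1 of 3 control arrays well above background, and stood at -7.46, -7.67 and -7.23 in drought. It was at -4.65, -4.94 and -3.49 in heat and at -2.14, -2.93 and -1.65 in combined stress. The 2 heated groups did not overlap, and combined stress added 2.12 ± 0.35 (SD, n = 3). Of 209 annotated transcripts in the wider list of other transcription factors, which counts the heat shock factors again where their annotation reads transcription factor, 6 were members. Within that list 44 were heat rises of the same kind, with a median difference of -0.05 between combined stress and heat.

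The chaperones among the members were 2 small heat shock proteins and 1 HSP70. HSP26.5-P (Sb04g006890.1), a small heat shock protein, had levels of -6.58, -5.61 and -5.31 in control, with drought at -5.97, -6.17 and -5.28, heat at -1.43, -1.27 and -0.23 and combined stress at 1.02, 0.07 and 0.93. Its heat ratio of 4.85 ± 0.44 (SD, n = 3) was the highest among the 51, just under the ceiling, and combined stress added 1.65 ± 0.70. HSP23.5-M (Sb10g007570.1), annotated as mitochondrial, was at -5.27, -5.62 and -5.04 in control, with drought at -5.90, -6.10 and -5.85, heat at -1.16, -3.12 and -0.71 and combined stress at 0.18, -2.06 and 0.48.

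Replicate 2 of HSP23.5-M was low in both heated groups, so the groups overlapped, and the step from heat to combined stress was 1.20 ± 0.14 (SD, n = 3). The 2 spots of the replicate 2 heat array had an SD of 1.16, so that array is imprecise for this transcript. Its locus number is followed by those of 3 further mitochondrial small heat shock proteins, Sb10g007580.1, Sb10g007590.1 and Sb10g007600.1, whose heat ratios of 5.75, 5.83 and 5.89 lay above the ceiling and whose differences in replicate 2 were 0.42, 0.29 and 0.33. Probes of near-identical copies may share signal, and this was not tested.

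Most small heat shock proteins were outside the rule, with heat ratios above its ceiling. Of 24 annotated transcripts, 21 had a mean heat ratio at or above 5 and the median heat ratio was 7.55. The difference of combined stress from heat was above 1 in all 3 replicates in 10 of the 24. Of 70 transcripts in the list of larger chaperones and co-chaperones, 46 were heat rises of the same kind with a median difference of 0.04, and 1 was a member, the cytosolic HSP70 HSC70-1 (Sb01g039480.1).

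HSC70-1 was at -1.56, -3.22 and -1.83 in control, with drought at -1.95, -3.54 and -2.22, heat at 0.67, -0.17 and 1.94 and combined stress at 2.49, 1.05 and 3.38. Its replicate 2 was the lowest in every group, so heat and combined stress overlapped across replicates. Combined stress exceeded heat by 1.49 ± 0.31 (SD, n = 3), and drought was below control by -0.37 ± 0.05.

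**Figure D3:**
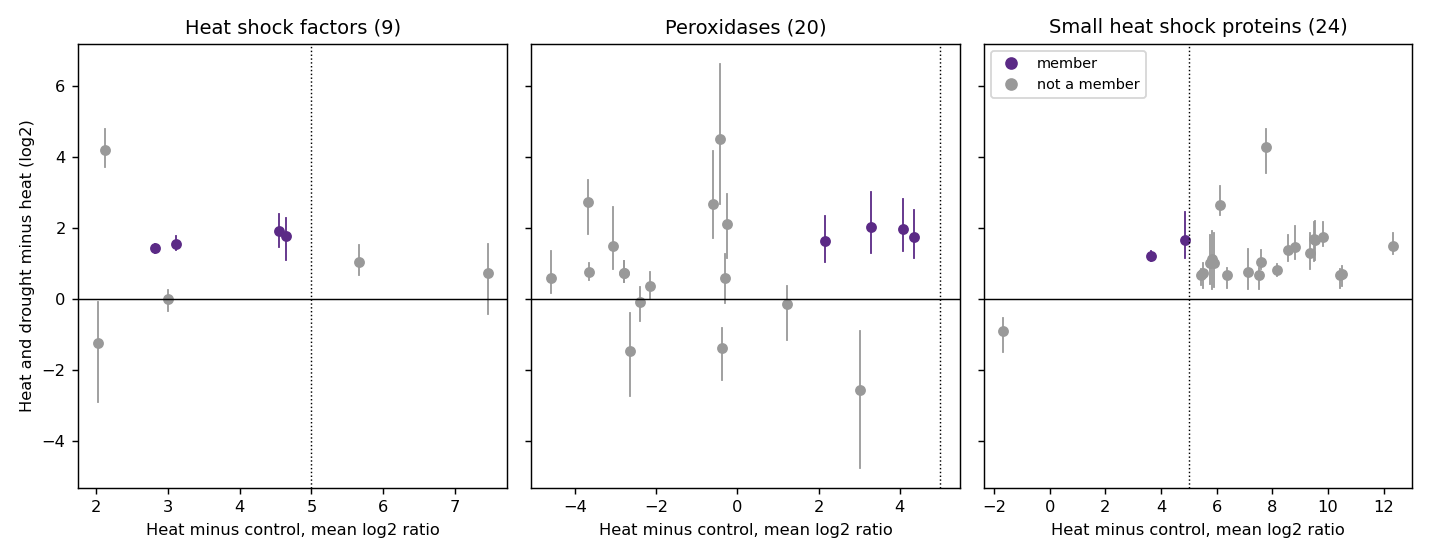
Difference of combined stress from heat against the mean heat ratio, both log2, for annotated heat shock factors (9), peroxidases (20) and small heat shock proteins (24). Points are means and lines span the 3 replicates, members are in colour, and the dotted line marks the heat ceiling of 5, above which lie 21 of the small heat shock proteins.

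A list of 20 annotated transcripts with peroxidase in their annotation left out ascorbate and glutathione peroxidases, and 1 of the 20 is a beta-galactosidase. The 4 peroxidases among the members were all of its heat rises of the same kind. In the wider list of 132 redox and detoxification transcripts, 34 were heat rises of the same kind, and the same 4 were members. The median difference of combined stress from heat over the 34 was -0.36, and 6 were above 0 in all 3 replicates. PER30 (Sb10g011530.1) was at -0.93, -2.02 and -1.19 in control, with drought at -1.16, -2.08 and -1.13, heat at 1.72, 0.87 and 3.15 and combined stress at 4.72, 2.15 and 4.93. PER12 (Sb03g011950.1) was at -5.75, -5.99 and -4.40 in control, with drought at -5.38, -5.99 and -4.96, heat at -1.54, -2.19 and -0.13 and combined stress at 1.27, -0.85 and 1.62. In both, replicate 2 of combined stress was the low array and lay below the highest heat array.

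The step from heat to combined stress was 2.02 ± 0.88 (SD, n = 3) for PER30, with 3.00, 1.29 and 1.78 in the single replicates, and 1.96 ± 0.76 for PER12. For the putative peroxidase Sb04g008640.1, with no control array well above background, it was 1.73 ± 0.70, and for PER57 (Sb01g028610.1) it was 1.62 ± 0.66. Sb04g008640.1 exceeded its background limit at least 6.87-fold in heat and at least 22.7-fold in combined stress, where a limit is the mean over the control arrays of the lowest signal well above background or the probe's own level if higher.

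The mean drought ratios of these peroxidases were -0.08 for PER30, -0.06 for PER12, 0.46 for Sb04g008640.1 and -0.43 for PER57. By the same limma test, 5 of the 20 peroxidase transcripts were higher and 9 were lower in heat than in control. Of all 2568 annotated transcripts tested, 1298 were called higher and 674 lower. A second PER12 transcript, Sb06g033850.1, had a heat ratio of -3.68 and a difference of 2.74 ± 0.81 from heat to combined stress, so that it stayed at -0.94 against control. Peroxidases with large drought ratios, such as Sb01g020830.1 at 5.82, were not heat rises.

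Several of the remaining named members had control at background. ST2A (Sb04g031660.1) is annotated as a sulfotransferase of hydroxyjasmonate, a step that takes jasmonate out of its active pool in Arabidopsis. It stood at -7.32, -7.58 and -7.90 in control, with drought at -8.29, -8.01 and -7.71, heat at -4.90, -4.62 and -3.76 and combined stress at -1.82, -2.80 and -0.28. None of its control arrays was well above background, so heat was at least 5.93-fold and combined stress at least 41.2-fold above the limit, and combined stress exceeded heat by 2.80 ± 0.87 (SD, n = 3) or 6.95-fold.

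A DC1 domain protein (Sb01g032890.1), of a cysteine- and histidine-rich family common in plants, rose from -9.31, -9.06 and -8.83 in control, none of them well above background, to -4.77, -4.42 and -4.08 in heat and -1.26, -1.59 and -2.31 in combined stress, with -8.53, -9.06 and -8.32 in drought. Combined stress exceeded heat by 2.70 ± 0.88 (SD, n = 3). The bounds were at least 6.20-fold in heat and at least 40.3-fold in combined stress.

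FLA10 (Sb10g026140.1), a fasciclin-like arabinogalactan protein of the cell surface, had no control or drought array well above background. Its levels were -5.03, -5.79 and -3.47 in heat and -2.14, -4.51 and -1.82 in combined stress, at least 4.90-fold and at least 18.7-fold above the control limit. The groups overlapped through replicate 2, and the step was 1.94 ± 0.84 (SD, n = 3).

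The nuclear movement family protein (Sb10g008230.1), whose family includes small heat shock-like chaperones in Arabidopsis, was at -6.71, -6.82 and -6.74 in control, with drought at -6.38, -6.29 and -6.00, heat at -3.99, -4.01 and -3.47 and combined stress at -1.80, -2.79 and 0.03. Its 3 heat arrays lay close together while the combined-stress arrays were spread, and the step was 2.30 ± 1.14 (SD, n = 3).

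The transcript with the lowest drought ratio was a serine/threonine protein kinase, Sb03g006915.1. It was at -4.27, -4.88 and -5.00 in control, stood at -5.86, -6.54 and -9.37 in drought, and reached -2.72, -3.40 and -2.23 in heat and -0.32, -1.98 and 0.87 in combined stress. The drought ratio was -2.54 ± 1.58 (SD, n = 3), with 2 of 3 drought arrays well above background, while combined stress exceeded heat by 2.31 ± 0.84. Its size is imprecise, since the ratio was -1.60, -1.66 and -4.37 in the single replicates. With a normexp background correction no member had a mean drought ratio below -0.96. Its locus number falls between those of 2 genes annotated as HSP18.2, Sb03g006900.1 and Sb03g006920.1, which had heat ratios of 8.80 and 9.80, drought ratios of 0.38 and 0.77, and combined-stress differences of 1.45 and 1.74. It was not called by limma in heat, in drought or between combined stress and heat, with or without a term for the replicate number.

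The transcript with the largest step of all, Sb04g025850.1, had no annotation. Combined stress exceeded heat by 3.14 ± 1.54 (SD, n = 3), 3.29, 1.53 and 4.61 in replicates 1, 2 and 3. Its levels were -7.97, -7.48 and -7.85 in control, with drought at -7.32, -8.68 and -5.40, heat at -4.79, -5.25 and -4.60 and combined stress at -1.50, -3.72 and 0.00. Control was not well above background, and the bounds were at least 4.51-fold in heat and at least 39.9-fold in combined stress. Its drought ratio was 0.63 ± 1.82, with 2.45 in replicate 3. The next was the unannotated transcript PACid 1965627, with a step of 3.01 ± 1.09. The drought ratio of PACid 1965627 was 0.95 ± 1.94, with 3.19 in replicate 3, and 1 of 3 control arrays was well above background.

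PACid 1985184 and PACid 1985185, known only by number, had control levels close to the 75th percentile. They differed by at most 0.08 on any array and are not counted as separate evidence. PACid 1985184 was at -0.05, -0.40 and 0.33 in control, with drought at 0.90, 0.24 and 1.40, heat at 1.94, 2.18 and 3.21 and combined stress at 4.37, 3.92 and 5.41. Its drought ratio of 0.89 ± 0.22 (SD, n = 3) was close to the upper limit of 1, its heat ratio was 2.48 ± 0.45, and combined stress added 2.13 ± 0.35.

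The drought ratios of the 51 members, which the rule held below 1 on average, ran from -2.54 upward and lay within 0.5 of 0 in 32. Drought was above control in all 3 replicates in 17 members (27.2% of all transcripts tested), below it in all 3 in 9 (40.9% of all transcripts tested) and of mixed sign in 25. The 9 below control in every replicate include DREB1A, PER57, HSC70-1, HSP23.5-M and the kinase. They also include FLA10, for which the sign carries no information, since neither control nor drought was well above background on any array.

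The rule makes the mean effect of drought over the 3 replicates larger at 50°C than at 28°C in every member. Limma's test of the departure from additivity, the difference between both drought effects, with Benjamini-Hochberg adjustment called 0 of 22546 transcripts in either direction, 0.0% each. At an unadjusted p under 0.05 and an excess beyond 1, it gave 957 transcripts higher and 769 lower, among them 30 members higher and 0 lower. With a term for the replicate number, 2 transcripts were called higher (0.00887%) and 1 lower (0.00444%), of which 1 was a member. The direction among the members follows from the rule, and nothing is read from it.

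By limma's test (adjusted p under 0.05, difference beyond 1), 47 members were called higher in heat than in control (14.8% of all transcripts tested), 51 higher in combined stress than in control (18.5%) and 51 higher in combined stress than in drought (12.4%). Between combined stress and heat, 23 members were called higher (3.34%), and 46 with a term for the replicate number (7.54%). Without replicate 1 it called 2 transcripts and 0 members there, and with the position of the array on its slide as a factor 122 transcripts and 1 member. No member was called in drought in either direction (4.2% of all transcripts tested higher and 0.758% lower), with or without the replicate term, where the rule allowed no mean above 1. At an unadjusted p under 0.05 by limma and a difference beyond 1, 0 members were higher and 1 was lower. Over all 22546 transcripts tested these counts were 1880 and 1594. All of these contrasts served to choose the members, so nothing is read from these counts.

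The members were a small part of the heat rises. On the array 1772 probes met the heat, drought and detection conditions, and the 51 members were 2.88% of them. Combined stress was above heat in all 3 replicates in 379 of the 1772 and below it in 580, and the median difference over them was -0.15. The opposite pattern, combined stress below heat by more than 1 in every replicate, was met by 26. The share of all transcripts that met these conditions on combined stress is not given here. These counts are therefore not read as particular to heat rises.

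The share of members was larger at larger heat ratios. Of 885 heat rises with a mean ratio from 1 to 2, 5 were members (0.565%). Of 585 from 2 to 3 there were 23 (3.93%), of 214 from 3 to 4 there were 14 (6.54%) and of 88 from 4 to 5 there were 9 (10.2%). The median difference of combined stress from heat was -0.21, -0.10, -0.04 and 0.27 in these 4 ranges. Above the ceiling, 26 of 89 further heat rises met the conditions on combined stress and drought, among them the chaperones BIP1 (Sb01g010460.1, with a difference of 2.99), HSC70-2 (Sb01g039436.1, 2.21) and HSP90.1 (Sb06g000660.1, 1.56).

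**Figure D4:**
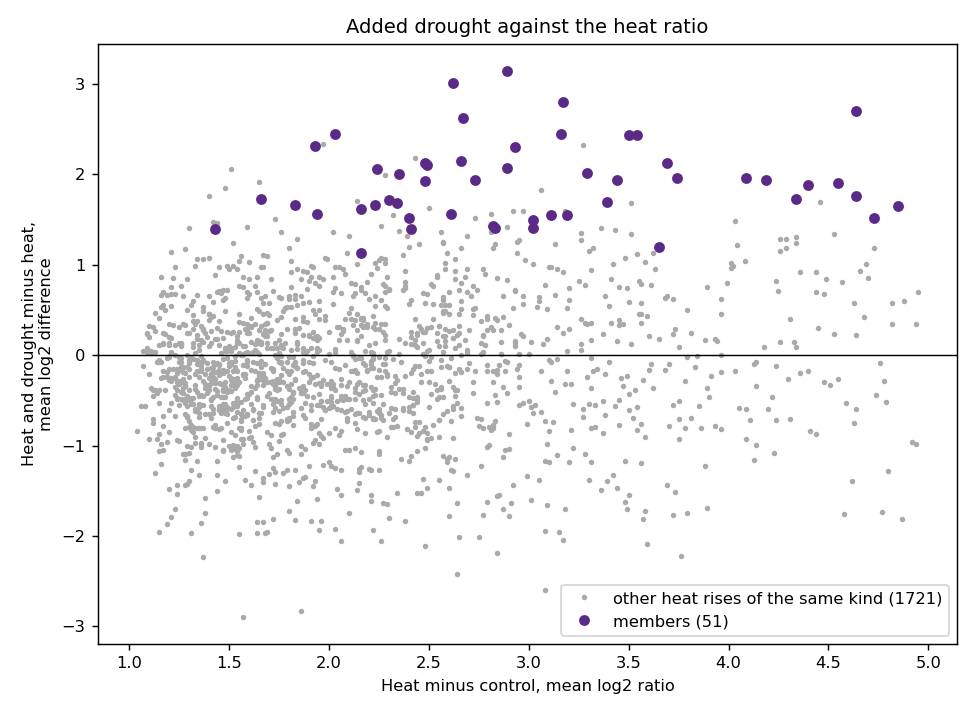
Mean difference of combined stress from heat against the mean heat ratio, both log2, for the 1772 heat rises of the same kind. The 51 members lie between 1.13 and 3.14 on the vertical axis by construction, and the other heat rises are spread about 0.

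The size of the step differed between replicates. The median difference of combined stress from heat over the members was 2.42 in replicate 1, 1.37 in replicate 2 and 1.75 in replicate 3. Replicate 1 had the largest step in 46 members and replicate 2 the smallest in 41. Combined stress was lowest in replicate 2 in 48 members. The heat ratio itself was largest in replicate 3 in 45 members, with medians of 2.23, 2.70 and 3.51 in replicates 1, 2 and 3. The members had a median SD between replicates of 0.48 for control, 0.53 for drought, 0.71 for heat and 0.89 for combined stress, against 0.23, 0.34, 0.24 and 0.40 over the 19103 transcripts detected on all arrays. Over the 25 members detected on all arrays these were 0.47, 0.52, 0.68 and 0.78.

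To see the step in arrays that the choice had not used, the same conditions were applied to 2 replicates at a time and the third was read. With replicate 1 held out, 56 probes were chosen (47 of them members), and their median difference in replicate 1 was 2.40 (quartiles 1.91 and 2.81), above 0 in 54 and above 1 in 52. The 1966 other heat rises had a median of 0.17, and 18.2% were above 1, against 13.6% of all transcripts tested. With replicate 2 held out, 124 were chosen (43 members), with a median of 1.03 (0.79 and 1.37), above 0 in all 124 and above 1 in 63, or 50.8%. The 1699 other heat rises had a median of -0.06 and 3.35% above 1, against 7.03% of all transcripts tested.

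With replicate 3 held out, 99 probes were chosen (50 members), with a median of 1.35 (0.65 and 1.81), above 0 in 89 and above 1 in 62, or 62.6%. The 2235 other heat rises had a median of -0.61 and 6.26% above 1, against 16.7% of all transcripts tested. In each replicate the probes chosen from the other replicates thus exceeded the remaining heat rises, and in replicate 2 about as many fell short of 1 as exceeded it. These are descriptions, since probes of 1 array are not independent.

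**Figure D5:**
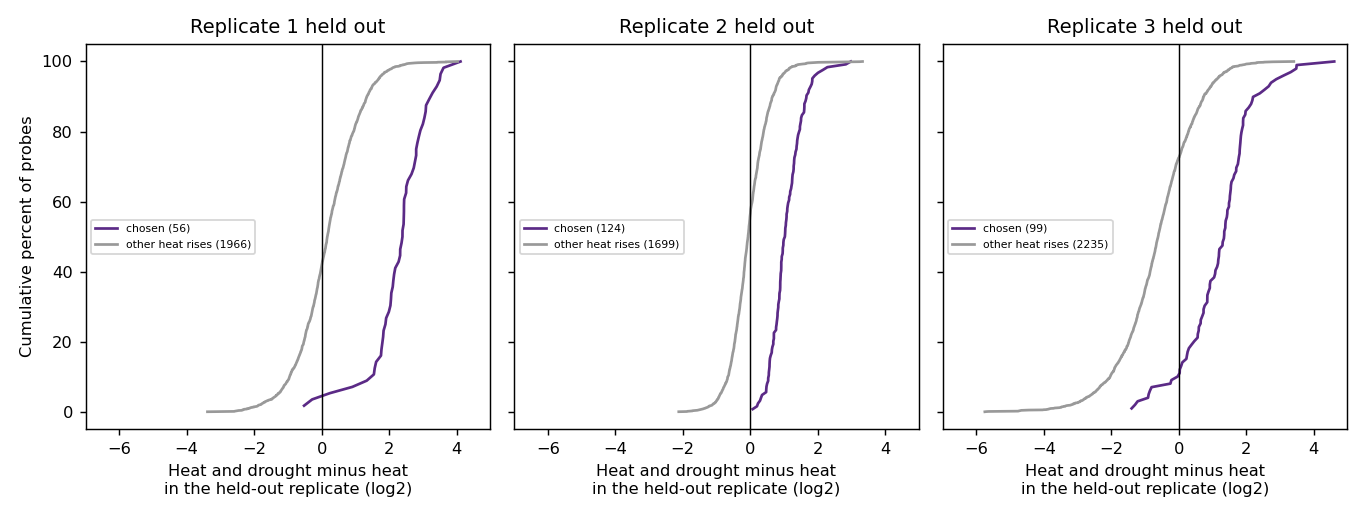
Cumulative percent of probes by the difference of combined stress from heat (log2) in 1 replicate, for probes chosen from the other replicates and for the other heat rises. The chosen probes lie to the right in each panel, with medians of 2.40, 1.03 and 1.35.

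The threshold cut through a continuous range. The 3 members nearest to it had smallest differences of 1.02, 1.02 and 1.03, and the 3 transcripts just outside had 0.996, 0.984 and 0.969, all in replicate 2.

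Detection limited the control values. Control was well above background on 3 arrays in 29 members, on 1 or 2 arrays in 13 and on none in 9, and 25 members were well above background on all 12 arrays. No spot of a member carried an outlier flag. The probe was spotted 2 times in 27 members and 1 time in 24, and the median SD between spots of an array was 0.07. In 11 members the spots had an SD above 0.5 on at least 1 array, up to 1.35 on a control array, and 1.26 on a control array of FLA10.

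The size of the step also depended on how the arrays were scaled. It was 1.89 with the deposited normalized values or with each array's median subtracted, and 1.79 after quantile normalization. With no scaling between arrays it was 1.22, when the median over all transcripts was -0.68, and all 51 members were above 0 in all replicates under these settings. With a normexp background correction it was 1.31, with 2 members below 0 on average and 43 above 0 in every replicate.

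The 28 transcripts with an identifier lie, by the chromosome number in the identifier, on chromosomes 1 (5), 2 (4), 3 (2), 4 (5), 6 (2), 7 (3), 8 (2) and 10 (5), and none of them on 5 or 9. Start and end coordinates, exon structure and probe sequences were not used here. Of all 2568 annotated transcripts tested, 21 were members (0.818%), so an empty list of this kind says little. The lists with no member were abscisic acid, dehydrin, LEA and water channel transcripts (0 of 57), transporters (0 of 264), sugar and compatible solutes (0 of 37), lipids and membranes (0 of 97), ubiquitin and proteolysis (0 of 108), cell wall (0 of 50), RNA processing and translation (0 of 62), photosynthesis (0 of 20) and genome maintenance (0 of 17). In the first of these, which holds typical drought genes, 29 of 57 were called higher in combined stress than in heat by limma's test and 6 were heat rises of the same kind, with a median difference of -0.37. By the same test 396 of all 2568 annotated transcripts were called higher.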

How the data were processed

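The authors deposited scanner intensity files (1 per array, Agilent Feature Extraction 10.7.3.1, processed signal, median signal, local background and flags, not normalized between arrays) and a table of normalized log2 values that they made in GeneSpring. In that table each probe was centred on its median over the arrays (within 0.001 for 99.83% of probes), and otherwise its differences between arrays matched log2 of the processed signal minus the array's 75th percentile. Members were chosen on the deposited log2 values, and levels, ratios and tests came from the processed intensity. Array-wide steps used non-control spots (43803 of 45220), and spots of a probe were averaged. The identifiers and annotations come from the study's gene lists, joined by using the listed folds per replicate as a key to 1 probe each (2971 probes, tolerance 4e-05), and no listed value was used otherwise. Those lists were held in shortened form, so a member without a name is unnamed here. The 23 members without an identifier had heat ratios of 1.1 to 2.14 in replicate 1, where the median over all members was 2.23. Counts of named classes among the members therefore lean to larger heat ratios in replicate 1. The counts of annotated transcripts in a list leave out those that the shortened lists do not hold.

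Limma 3.58.1 (R 4.3.3) fitted 4 group means to 22546 transcripts detected on all 3 arrays of a group, with Benjamini-Hochberg adjustment. Other steps used python 3.11.15, numpy 2.4.6, pandas 2.3.3, scipy 1.17.1 and matplotlib 3.10.9. The fit was run on simulated data with independent noise on each array. That simulation held no deviation shared by same-numbered arrays, so it says nothing about the replicate block. Replicate number marks the slide, and same-numbered arrays deviated from their group means together in 17 of 18 pairs (correlation above 0.1, range 0.04 to 0.62), so ratios were paired while the replicate block was an alternative to the fit. The normexp alternative used the median signal, with an offset of 50.

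The members, gene lists and tests were chosen with earlier results of these data known. Genes were named by a rule: members of the annotation lists (up to 4 per list), the largest steps, the lowest and highest drought ratios and control levels, pairs that share a gene or lie next to each other, and at most 4 unannotated members. Non-members were named afterwards, for comparison. The p-values measure the spread between 3 arrays of pooled tissue, whose number limits the precision. No sequence was available here to print beside the members.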

Additional observations from a re-analysis of the deposited data

Results flagged for a closer look

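In 9 members drought alone was below control in all 3 replicates while added drought raised them above heat in all 3 replicates. The mean drought ratios (log2) were -2.54 for the kinase Sb03g006915.1, -0.64 for HSP23.5-M (Sb10g007570.1), -0.61 for DREB1A (Sb02g030310.1), -0.50 for FLA10 (Sb10g026140.1), -0.43 for PER57 (Sb01g028610.1) and -0.37 for HSC70-1 (Sb01g039480.1). For 3 unannotated transcripts they were -0.42, -0.75 and -0.75. What singled them out is that the sign differs between both temperatures, but the rise at 50°C was required of every member, so only the drought sign is free, and drought was below control in all replicates in 40.9% of all transcripts tested. Limma's test of the difference between both drought effects called none of these 9. With a term for the replicate number it called 1 of them higher, PACid 1959831. Nothing is read from these calls, since the rule used these arrays. For the kinase 2 of 3 drought arrays were well above background, so the size of its ratio is imprecise. For FLA10 no control or drought array was well above background, so its drought ratio and sign carry no information. The signs were not kept under every scaling by FLA10 and by 1 of the 3 unannotated transcripts.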

How the results depend on the processing

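The direction of the step held in all 51 members under every scaling except normexp. The number of members was 11 with no scaling between arrays, 15 with a step above 1.5 in every replicate, 200 with group means in place of pairs and 77 with no heat ceiling. Normexp gave 35, of which 22 are among the 51, and quantile normalization 38, of which 37 are. The number was 56 to 124 when one replicate was left out. The median step was 1.22 with no scaling and 1.31 with normexp, and 1.54 to 2.11 without one replicate. Leaving out a replicate gave 2.62 to 3.15 for the heat ratio, 0.03 to 0.25 for the drought ratio and 4.41 to 5.06 for the combined ratio, and normexp gave 2.18 for heat and 3.50 for combined stress. Against 752 transcripts called higher and 264 lower in combined stress than in heat, the replicate block that pairs arrays by slide gave 1700 and 1065, the array position as a factor 122 and 19 (1 member higher), normexp 221 and 60, no scaling 5824 lower and no filter on dim probes 121 lower. Without replicate 1 the calls were 2 higher and 0 lower, with 0 members, and leaving out one replicate gave 2 to 1563 higher and 0 to 1117 lower. For drought (947 and 171) the block gave 1556 and 678, position 321 and 13, normexp 91 lower, array median 259 lower and no filter 92 lower, and leaving out one replicate 66 to 1514 higher and 1 to 529 lower. For heat (3335 and 3294) normexp gave 5014 and 1476, and leaving out one replicate 1675 to 3131 higher and 1486 to 2983 lower. For combined stress against control (4160 and 4289) position gave 2675 and 2508, no scaling 2381 and 9685 and normexp 2661 lower, and leaving out one replicate 2020 to 4209 higher and 1814 to 4230 lower. The cause of these shifts was not tested. Control levels near background limit the heat ratios of 22 members.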
